A study of Mus musculus with 48 samples.

Results

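Lpl, the gene for lipoprotein lipase, and 8 genes that handle the lipids the enzyme releases (Cd36, Fabp4, Fabp5, Pparg, Apoe, Abca1, Abcg1 and Lipa) were followed across 48 RNA-seq libraries from mice carrying B16F10 melanomas. The 9 symbols were listed by name and matched 9 of the 34932 genes with counts. Lpl was listed because it was the top gene higher in CD8+ tumor-infiltrating lymphocytes (TILs) of Yap-cKO mice, so the list was chosen by the CPM difference measured there. No member is tested in that comparison, and its values are given as a description.

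The libraries compared wild-type (WT) C57BL/6J mice with Yap-cKO mice of the same strain, in which the CD4-Cre transgene deletes loxP-flanked Yap in cells of the T lineage. The methods describe young adult littermates, and the Cre line also carries a lox-stop-lox EYFP reporter. B16F10 tumors (TILs) and tumor-draining inguinal lymph nodes (TDLNs) were sorted into CD4+ T cells, CD8+ T cells and a CD45+ CD4- CD8- fraction, giving 12 groups of 4 libraries. Every group came from tumor-bearing mice, and the CD45+ CD4- CD8- fraction, called CD45+ cells below, is not the population that the Cre transgene targets.

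Each library placed 12656302 to 24213689 counts on genes, and levels are given as CPM (counts relative to the library's total, scaled for its composition with TMM factors). Yap1 stood at 12.6 to 25.2 CPM in the WT CD8+ TILs and at 2.43 to 6.48 in the Yap-cKO ones. In CD4+ TILs it stood at 14.2 to 25.4 against 1.70 to 5.70, and in the TDLN groups it lay between 1.10 and 4.36 with overlapping ranges. CD45+ TILs, which the Cre transgene does not target, held 2.80 to 5.40 CPM of Yap1 in WT and 1.48 to 2.09 in Yap-cKO mice, without overlap, and their summed melanoma markers moved the same way (1115 to 1824 and 126 to 524 CPM). In CD8+ and in CD4+ TILs the melanoma sums, given below, were likewise lower in every Yap-cKO than in every WT library. Whether melanoma reads had a part in any of these Yap1 differences was not tested. Replicate 4 of every WT group stood apart from replicates 1 to 3: the summed CPM of 4 Y-linked genes was 40.2 to 420 in WT replicates 1 to 3, 2.55 to 8.79 in WT replicate 4, and 2.46 to 18.3 in the Yap-cKO libraries. Y-linked transcripts, a mark of male tissue, thus moved with the genotype except in WT replicate 4. No source used here ties a library to an animal, so p-values measure the spread between libraries. The sorts held markers of other cells. T-lineage genes (15, summed) reached 6870 to 15558 CPM in TDLN T cells and 191 to 238 CPM in CD45+ TILs, and 5 B cell markers summed to 6549 to 8596 CPM in TDLN CD45+ cells and to 190 to 1631 CPM in CD45+ TILs. For the same T-lineage genes WT CD8+ TILs reached 2043 to 5920 CPM and Yap-cKO CD8+ TILs 6912 to 7710, and summed melanoma markers in CD8+ TILs ran from 3811 to 13384 CPM in the WT and from 42.5 to 2592 in the Yap-cKO libraries. In such bulk samples fewer cells of a type and less RNA per cell cannot be told apart.

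Lipoprotein lipase is secreted and hydrolyzes the triglycerides of circulating lipoproteins, which frees fatty acids for the tissue around it. CD36 takes fatty acids and modified lipoproteins into the cell, the binding proteins FABP4 and FABP5 carry fatty acids inside it, and PPARγ is the nuclear receptor that fatty acid ligands activate. Lysosomal acid lipase, encoded by Lipa, breaks down the cholesteryl esters and triglycerides that arrive by endocytosis, and ABCA1 and ABCG1 export cholesterol to acceptors such as apolipoprotein E. Adipocytes, muscle and tissue macrophages are known sources of LPL, and lipid-loaded macrophages express many of these genes.

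In the annotation the files match (GENCODE M21 on GRCm38), Lpl (ENSMUSG00000015568.16) lies at chr8:68880491-68907448 on the plus strand. Cd36 lies at chr5:17781690-17888801, Fabp4 at chr3:10204088-10208576 and Fabp5 at chr3:10012548-10016607. Pparg lies at chr6:115360951-115490399, Apoe at chr7:19696109-19699188, Abca1 at chr4:53030787-53159895, Abcg1 at chr17:31057675-31117988 and Lipa at chr19:34492318-34527474. Of the 31-base words in each gene's transcripts, 9.16% of those in Fabp5 also occur in another gene, most of them in Gm6166 (7.24%), so reads may be shared between those genes. The share was 2.94% for Lpl, 0 for Cd36, Apoe and Abca1, and at most 0.464% for the other 4.

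Lpl has a transcript that matters for reading its low values. Lpl-201 has 10 exons and 4115 bases (68880491 to 68906934 on chromosome 8). Lpl-202 reads on from exon 2 into intron 2 and ends there: its last exon covers 68887443 to 68889681, and 2078 of its 2239 bases are intron in Lpl-201. The junction is shown because it separates a spliced message from reads on the intron. Capitals mark the last 30 bases of exon 2, chr8:68887574-68887603 on the plus strand of GRCm38. Lower case marks the first 30 bases of exon 3 (chr8:68892595-68892624) in Lpl-201, and the first 30 bases of intron 2 (chr8:68887604-68887633) in Lpl-202.
Lpl-201: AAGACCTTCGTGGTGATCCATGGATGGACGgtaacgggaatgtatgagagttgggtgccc
Lpl-202: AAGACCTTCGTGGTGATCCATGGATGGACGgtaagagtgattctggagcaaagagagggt

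Lpl was highest in CD45+ cells from tumors, low in every TDLN population, and intermediate in Yap-cKO CD8+ TILs. In WT CD45+ TILs its 4 libraries held 332, 169, 304 and 225 CPM (258 ± 74.2, SD, n = 4), and in Yap-cKO CD45+ TILs they held 235, 345, 726 and 392 CPM (424 ± 211, SD, n = 4). These are the highest Lpl values of the 12 groups, and the ranges of the genotypes overlap. TDLN T cells lay between 1.44 and 7.63 CPM over 16 libraries, and TDLN CD45+ cells between 3.42 and 7.27 CPM over 8.

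In CD8+ TILs the genotypes did not overlap. The WT libraries held 13.1, 8.44, 6.82 and 4.89 CPM of Lpl (8.31 ± 3.49, SD, n = 4), from 89 to 204 counts each. The Yap-cKO libraries held 51.7, 43.7, 53.5 and 45.0 CPM (48.5 ± 4.83, SD, n = 4), from 766 to 1058 counts each. Every Yap-cKO library was above every WT library, and the ratio of the means was 5.84 (log2 difference 2.45, SE 0.31), the value that brought Lpl onto the list and that is not tested here. Scaling the libraries on 15 T-lineage genes instead of on all genes brought the log2 difference to 1.13 (SE 0.56). The same scaling brought the median of all genes from 0.08 to -1.06. A term for the Y-linked genes brought the Lpl difference to 3.02 (SE 0.52). With that term 1 of all genes was called in CD8+ TILs, against 1719 without it.

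In CD4+ TILs the genotypes overlapped. WT CD4+ TILs held 12.2, 2.99, 12.5 and 7.82 CPM of Lpl and Yap-cKO CD4+ TILs 5.59, 6.22, 11.7 and 6.08, where replicate 3 was the highest. The log2 difference was -0.26 (SE 0.48, edgeR adjusted p = 0.763). Ordered by group mean, the Yap-cKO CD8+ TILs overlapped neither neighbor, the CD45+ TILs above them and the WT CD4+ TILs (8.90 CPM) below. Below that point each group's range overlapped the next one's: WT CD8+ TILs (8.31), Yap-cKO CD4+ TILs (7.40), WT and Yap-cKO TDLN CD45+ cells (5.50 and 5.18), Yap-cKO TDLN CD8+ cells (3.37), Yap-cKO TDLN CD4+ cells (2.71), WT TDLN CD8+ cells (2.70) and WT TDLN CD4+ cells (2.28).

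**Figure D1:**
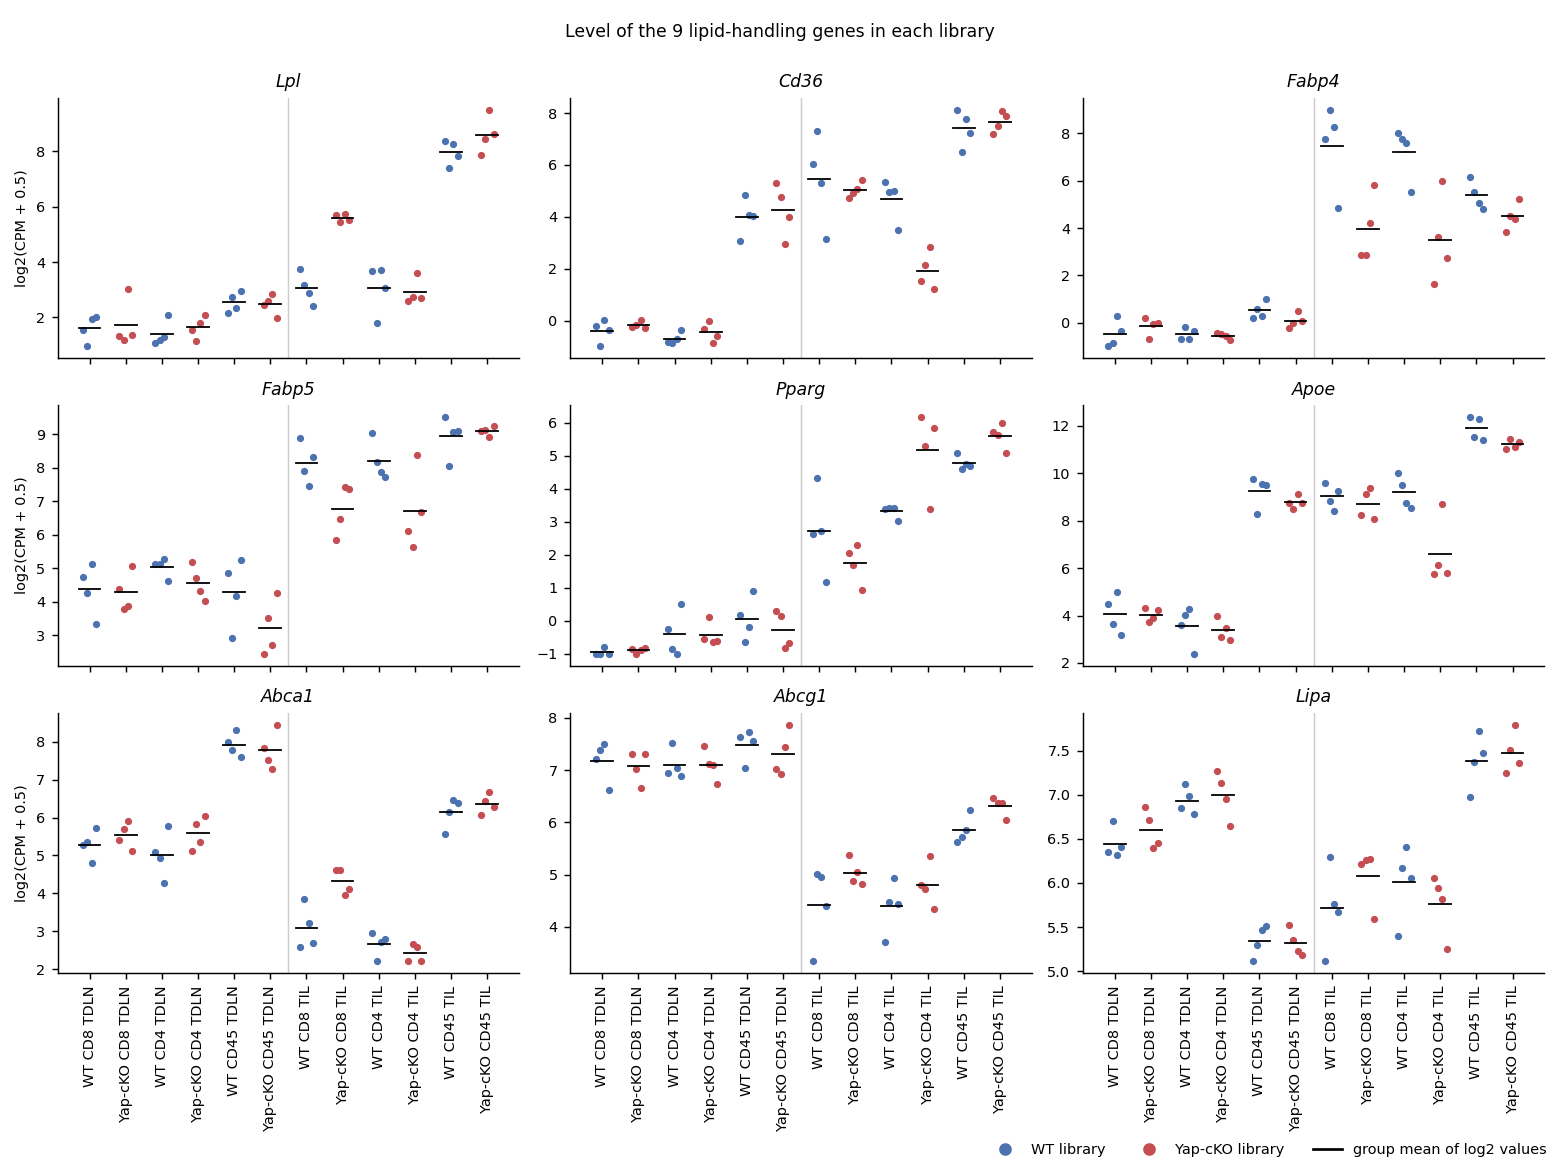
Each panel plots 1 of the 9 genes as log2(CPM + 0.5) on the vertical axis, with the 12 groups along the horizontal axis, 1 point for each library and a black line at the group mean of the log2 values. Lpl sits highest in both CD45+ TIL groups and stands clear of the WT values in Yap-cKO CD8+ TILs, whereas Fabp4 has its highest mean in WT CD8+ TILs and Abcg1 its highest values in the TDLNs.

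Lpl rose with the sorted fraction and with the tumor, in comparisons that used none of the CD8+ libraries. These comparisons share libraries with one another: each WT and Yap-cKO CD45+ TIL group enters both. A gene was called where the edgeR quasi-likelihood test gave an adjusted p under 0.05 and the log2 difference passed 1. Within WT tumors Lpl was 28.9-fold higher in CD45+ than in CD4+ cells (log2 4.81, SE 0.46, adjusted p = 1.58e-05), and within Yap-cKO tumors 57.4-fold higher (log2 5.80, SE 0.47, adjusted p = 7.53e-06). The test of whether this gap differed between the genotypes did not pass (difference 0.98 on the log2 scale, SE 0.60, adjusted p = 0.495). CD45+ cells from tumors exceeded those from TDLNs 46.8-fold in WT (log2 5.51, adjusted p = 1.18e-05) and 82.0-fold in Yap-cKO mice (log2 6.28). The summed macrophage markers described further on moved with this difference, from 155 to 3726 CPM in TDLN CD45+ cells to 16952 to 33622 CPM in CD45+ TILs, and their part in it was not tested.

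The other Lpl contrasts that involve TDLNs were smaller. WT TDLN CD45+ cells held 3.95, 6.22, 4.58 and 7.27 CPM and WT TDLN CD4+ cells 1.62, 1.78, 1.98 and 3.74, and the log2 difference of 1.24 (SE 0.39, edgeR adjusted p = 0.0364) lost its call without any of 6 of the 8 libraries (adjusted p 0.0517 to 0.112). In Yap-cKO TDLNs the difference was 0.89 (adjusted p = 0.0774). WT CD4+ TILs were above WT TDLN CD4+ cells (log2 2.02, SE 0.49, adjusted p = 0.00512), a call kept without any 1 of the 8 libraries (adjusted p at most 0.0194). The Yap-cKO CD4+ TILs were above Yap-cKO TDLN CD4+ cells (log2 1.37, SE 0.40, adjusted p = 0.034), a call lost without any of 5 of the 8 libraries.

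Most of the Lpl signal in lymph node T cells was on the transcript that ends in intron 2. Lpl-202 took 67.5% to 100% of the Lpl counts in the 16 TDLN T cell libraries and 55.4% to 82.9% in TDLN CD45+ cells, but 0.552% to 1.31% in CD45+ TILs. Its own level stayed between 0.934 and 6.27 CPM in all 48 libraries. The spliced transcripts Lpl-201 and Lpl-203 held 0 to 1.07 CPM in TDLN T cells, 165 to 327 CPM in WT CD45+ TILs and 232 to 713 CPM in Yap-cKO CD45+ TILs. Salmon divides reads between transcripts by a model, and reads on intron 2 of an unspliced message would also be given to Lpl-202.

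In CD8+ TILs the spliced transcripts carried the difference between the genotypes. Lpl-201 and Lpl-203 together held 10.5, 7.37, 5.22 and 3.86 CPM in the WT libraries and 48.03, 41.2, 51.7 and 40.9 CPM in the Yap-cKO libraries, which again did not overlap. Lpl-202 took 16.5%, 12.6%, 17.3% and 21.2% of Lpl in the WT and 6.39%, 5.84%, 2.78% and 7.73% in the Yap-cKO libraries. Counted on the spliced transcripts alone, a choice made after seeing the data, the CD8+ TIL difference was 2.66 on the log2 scale (SE 0.33). In Yap-cKO CD4+ TILs the spliced transcripts held 2.33, 2.73, 9.77 and 3.67 CPM against 10.9, 1.71, 10.8 and 6.23 in WT, a log2 difference of -0.67 (SE 0.64, edgeR adjusted p = 0.532, range over all alternatives 0.0754 to 0.998). On the spliced transcripts the WT TDLN difference of CD45+ over CD4+ cells was 2.82 (adjusted p = 0.00506) and that of Yap-cKO TDLNs 1.03 (adjusted p = 0.146). CD4+ TILs exceeded TDLN CD4+ cells on these transcripts by 4.99 on the log2 scale in WT (adjusted p = 0.000103, range over the alternatives 7.36e-05 to 0.0194) and by 3.50 in Yap-cKO mice (adjusted p = 0.00311, range 0.00311 to 0.107). In TDLN CD4+ cells the spliced transcripts held only 0.0889 to 0.466 CPM (WT) and 0.223 to 0.710 CPM (Yap-cKO), and these libraries alone did not pass the count filter. Spliced Lpl needed the CD45+ or the tumor libraries to pass, so the filter favored a rise in these comparisons.

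**Figure D2:**
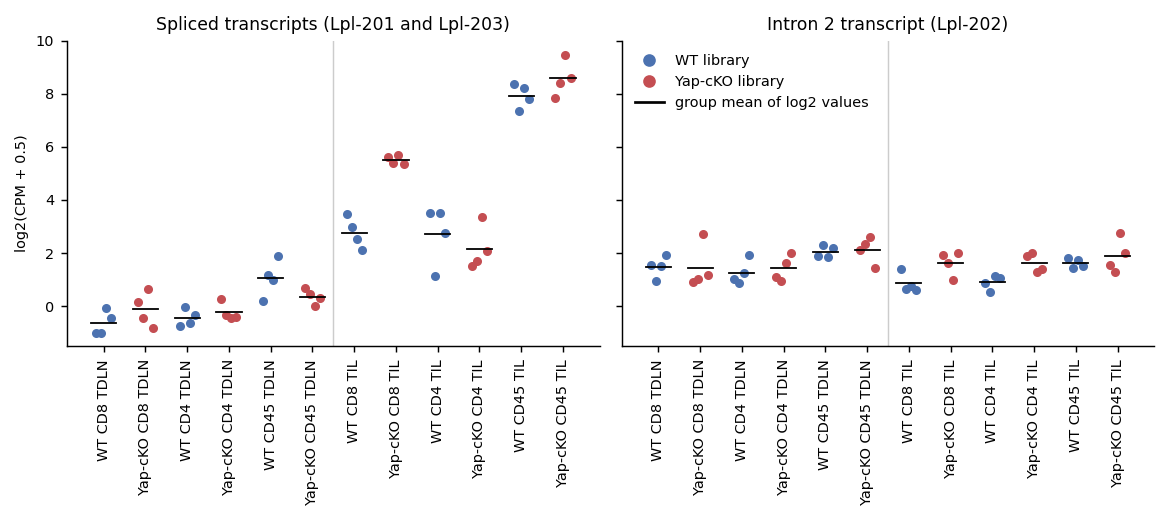
The left panel plots log2(CPM + 0.5) of the spliced transcripts Lpl-201 and Lpl-203 together and the right panel that of Lpl-202, with 1 point for each library in each of the 12 groups and a black line at the group mean of the log2 values. The spliced transcripts run from 0 to 713 CPM across the groups, whereas Lpl-202 stays between 0.934 and 6.27 CPM in all 48 libraries.

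Because Lpl was highest in the CD45+ TILs, its level in the sorted T cells was set beside 9 macrophage markers (Csf1r, Adgre1, Lyz2, Cd68, C1qa, C1qb, C1qc, Mertk and Fcgr1). None of the 9 was at 0 in every library of any group. Their summed CPM was 30953, 22992, 33622 and 25440 in WT CD45+ TILs and 16952, 28462, 19326 and 26294 in Yap-cKO CD45+ TILs. In CD8+ TILs it was 529, 265, 603 and 344 in WT and 722, 1950, 1961 and 863 in Yap-cKO libraries, so that the sum, like Lpl, was higher in every Yap-cKO library than in every WT library. In CD4+ TILs the sums moved the other way, with 631, 287, 686 and 248 in WT and 106, 164, 619 and 102 in Yap-cKO libraries. The sums of TDLN T cells were 7.63 to 39.9.

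Read against the marker sum, Lpl in CD8+ TILs was 2.47%, 3.19%, 1.13% and 1.42% in the WT libraries and 7.16%, 2.24%, 2.73% and 5.22% in the Yap-cKO libraries. The medians were 1.95% and 3.97%, and the ranges overlap. In CD45+ TILs the same share was 0.735% to 1.07% in WT and 1.21% to 3.75% in Yap-cKO mice, and in CD4+ TILs it was 1.04% to 3.15% in WT and 1.89% to 5.98% in Yap-cKO mice. Per Csf1r, the receptor of the macrophage growth factor CSF1, Lpl was 0.239 to 1.02 in WT and 0.557 to 2.51 in Yap-cKO CD8+ TILs, and 0.120 to 0.528 over both CD45+ TIL groups. The part of macrophage RNA in the CD8+ TIL difference was not tested.

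**Figure D3:**
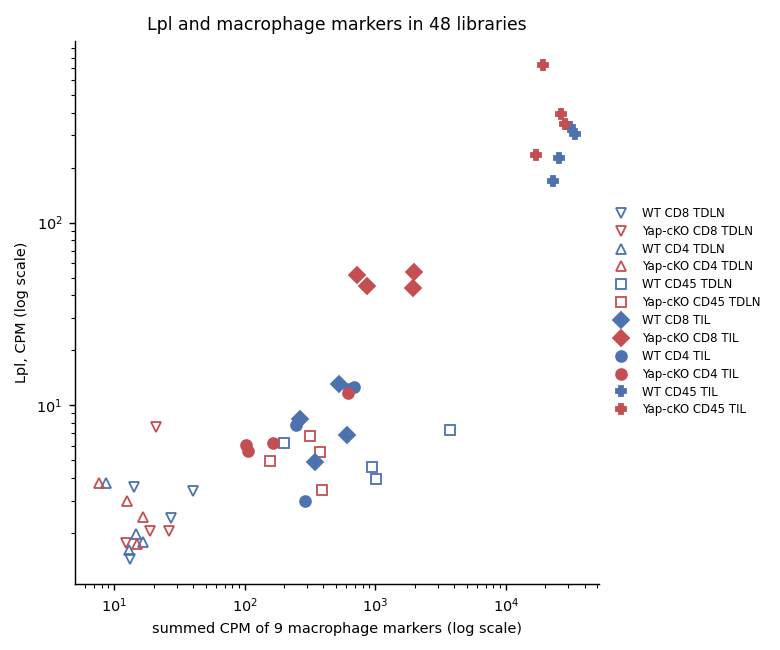
Lpl CPM is plotted on a log vertical axis against the summed CPM of 9 macrophage markers on a log horizontal axis, with 1 point for each of the 48 libraries, blue for WT and red for Yap-cKO, and a marker shape for each sorted fraction and tissue. The CD45+ TILs sit at upper right (169 to 726 CPM of Lpl), and the 4 Yap-cKO CD8+ TIL libraries lie at 43.7 to 53.5 CPM of Lpl over marker sums of 722 to 1961.

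Markers of other cell types were read in the same way. A sum over 6 adipocyte markers came to at most 3.39 CPM in every one of the 48 libraries, and Adipoq, the adipocyte hormone gene, reached at most 1.27. Endothelial markers summed to 263, 1474, 395 and 110 CPM in WT CD8+ TILs against 67.5 to 91.9 in Yap-cKO CD8+ TILs, and fibroblast and pericyte markers to 100, 710, 113 and 40.2 against 5.52 to 11.1. Both sums were higher in every WT than in every Yap-cKO CD8+ TIL library. Dendritic cell markers went in the direction of Lpl, at 26.6 to 48.6 CPM in WT CD8+ TILs and 48.03 to 68.0 CPM in Yap-cKO CD8+ TILs, and so did NK cell markers, at 7.37 to 52.8 and 43.4 to 64.7 CPM, with ranges that overlap in both lists. Neutrophil markers held 7.95 to 92.1 and 4.10 to 32.7 CPM. These values belong to the contrast that chose Lpl, and the part of any of these cells in it was not tested.

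The 10 genes whose pattern over the 48 libraries was most like that of Lpl, by Pearson's r of log2(CPM + 0.5) among 13292 genes, were Ms4a7 (r = 0.965), Mrc1 (0.964), Tbxas1 (0.961), Fcrls (0.959), Msr1 (0.958), Adap2 (0.958), Nxpe5 (0.956), Gdf3 (0.956), F7 (0.954) and C3ar1 (0.952). The points share libraries, tissues and sorts, so r is a description. Mrc1 encodes the mannose receptor and Msr1 a scavenger receptor, both well known from macrophages. Of the other members Cd36 had r = 0.818 and place 498 in this order, Apoe 0.767, Pparg 0.727, Fabp5 0.719, Fabp4 0.549, Lipa 0.422, Abca1 0.117 and Abcg1 -0.31.

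In CD8+ TILs the ratio of Yap-cKO to WT means was 5.84 for Lpl, 2.02 to 9.07 for these 10 genes and 0.914 to 5.62 for the 9 macrophage markers. Every Yap-cKO library was above every WT library for 7 of the 10 likest genes and for 5 of the 9 markers, against 10.7% of all genes tested. The likest genes were chosen over libraries that include these CD8+ TIL libraries, so part of their separation was built in. These ratios come from the contrast that chose Lpl and carry no test. As a percent of the CD45+ TIL mean of the same genotype, Lpl reached 11.4% in Yap-cKO CD8+ TILs, where the likest genes reached 5.38% to 27.9% and the markers 2.95% to 28.1%. In WT CD8+ TILs it reached 3.23%, the likest genes 1.66% to 6.41% and the markers 1.23% to 20.6%. The highest Yap-cKO CD8+ TIL library was 1.22 times the lowest for Lpl, 1.65 to 15.2 times for the likest genes and 2.26 to 5.08 times for the markers. A gene chosen as the top one of these libraries tends to have a narrow range in them, so nothing is read from this spread.

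**Figure D4:**
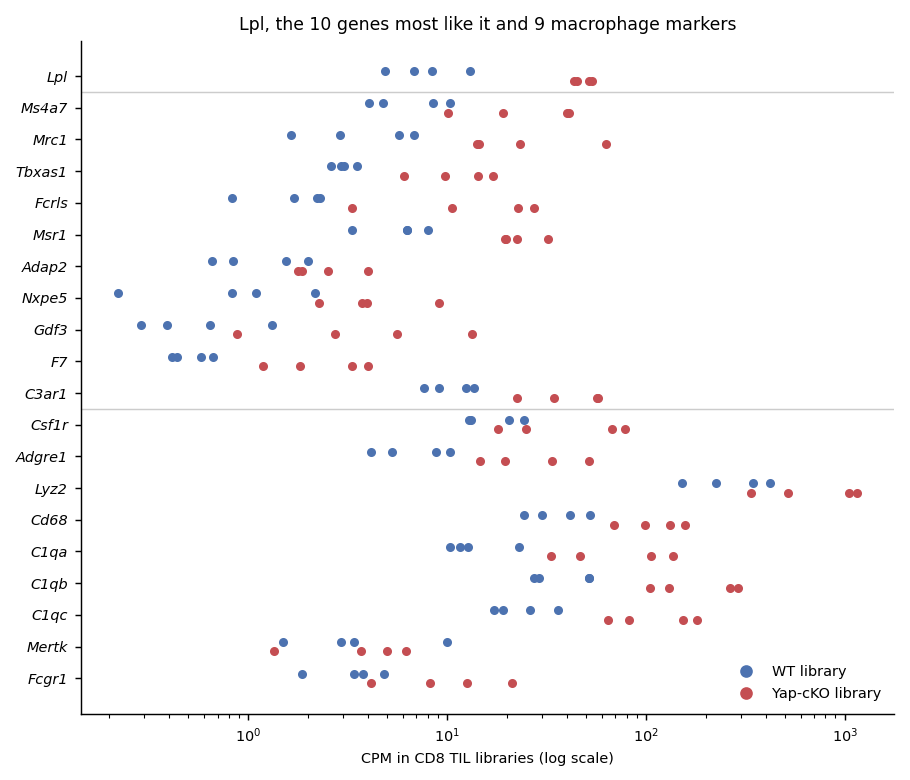
CPM on a log axis is plotted for Lpl, the 10 genes most like it over the 48 libraries and 9 macrophage markers, with 1 point for each of the 4 WT and 4 Yap-cKO CD8+ TIL libraries. The Yap-cKO points of Lpl lie within 43.7 to 53.5 CPM and apart from the WT points at 4.89 to 13.1. Of the 10 likest genes 7, and of the 9 markers 5, also have every Yap-cKO point above every WT point, against 10.7% of all genes tested.

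Between the genotypes, 2 of the 9 genes were called in CD4+ TILs, none in CD45+ TILs and none in any TDLN population. In CD4+ TILs Pparg rose and Cd36 fell. The members' count of 1 higher and 1 lower stands beside backgrounds of 1.36% of all tested genes higher and 6.66% lower. An unadjusted edgeR p below 0.05 was found for 4 members and for 3482 of the 14205 genes tested. Over the 9 genes the median log2 difference was -0.29, and over all genes tested it was 0.14. In CD8+ TILs, where no member is tested, Lpl, Fabp5 and Abca1 did not overlap between genotypes (3 of 9), and of all genes 3.03% were called higher and 9.14% lower, while 10.7% had every Yap-cKO library above every WT library and 11.1% every one below.

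In CD45+ TILs edgeR called 0 of 9 members (0.991% of all genes were called) and DESeq2 also 0. There 4 members, and 2425 of the 13628 genes tested, had an unadjusted edgeR p under 0.05. In TDLNs edgeR and DESeq2 called 0 of the 6 members that passed the count filter in CD4+ cells (background 0.0462%), 0 of 6 in CD8+ cells (0.0158%) and 0 of 9 in CD45+ cells (0.0596%), and no member had an unadjusted p under 0.05. Cd36, Fabp4 and Pparg were the 3 that did not pass in TDLN T cells. The Lpl log2 differences in TDLNs were 0.29 (CD4+), 0.37 (CD8+) and -0.05 (CD45+).

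**Figure D5:**
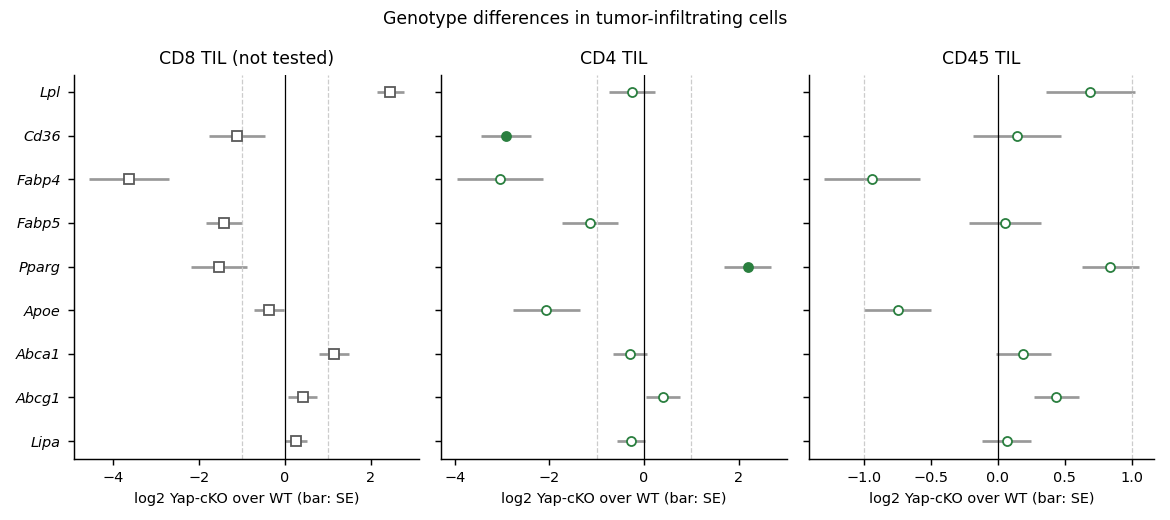
The log2 difference of Yap-cKO over WT is plotted for the 9 genes in CD8+ TILs (not tested), CD4+ TILs and CD45+ TILs, with bars of 1 SE, filled points for called genes and dashed lines at a log2 difference of 1 in either direction. Lpl lies at 2.45 in CD8+ TILs, -0.26 in CD4+ TILs and 0.69 in CD45+ TILs, and the called genes are Pparg and Cd36 in CD4+ TILs.

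Between the sorted fractions of WT tumors 7 of the 9 genes were higher in CD45+ than in CD4+ cells and 1, Fabp4, was lower, against backgrounds of 15.6% higher and 17.6% lower. In Yap-cKO tumors 7 of 9 were higher and none lower (15.8% and 13.9%), with Pparg and Fabp4 not called. The Fabp5 call there was lost without Yap-cKO CD4+ TIL replicate 1 (edgeR adjusted p = 0.0538) or replicate 4 (adjusted p = 0.0703). In WT TDLNs 5 of the 8 that passed the filter were higher and 1 lower (13.5% and 11.1%), and in Yap-cKO TDLNs 3 of 7 were higher and 2, Lipa and Fabp5, lower (12.7% and 12.4%). Cd36 and Fabp4 passed in TDLNs through the CD45+ libraries, so those counts were bound to favor the CD45+ side.

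Between tumor and TDLN the CD45+ cells changed in all 9 genes in both genotypes. In each, 7 rose (Lpl, Fabp4, Pparg, Fabp5, Cd36, Apoe and Lipa) and 2 fell (Abca1 and Abcg1), where 21.9% of all genes rose and 18% fell in WT and 21.8% and 18.5% in Yap-cKO mice. Without Yap-cKO CD45+ TIL replicate 4 the fall of Abcg1 in Yap-cKO mice was short of the fold threshold (log2 -0.97). The makeup of the CD45+ fraction changed alongside, with the fall of the B cell sum and the rise of the macrophage sum given above, and their part in these changes was not tested. In WT CD4+ cells 6 rose and 2 fell (22.9% and 14.4% of all genes), and in Yap-cKO CD4+ cells 6 rose and 3 fell (12.4% and 6.07%). Cd36 and Fabp4 had 1 to 9 counts in the TDLN CD4+ libraries and passed the filter through the tumor libraries, so they could only be counted as risen. Pparg also needed the tumor libraries to pass, with 0 to 17 counts in TDLN CD4+ and 1 to 21 in TDLN CD45+ cells. So did Fabp4 in Yap-cKO CD45+ cells (7 to 15 counts in TDLNs). For these the filter favored a rise. Lipa fell in the CD4+ cells, by 1.29 on the log2 scale with Yap-cKO and by 0.81, short of the fold threshold, in WT.

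Compared per length, in TPM (Salmon's length-scaled abundance), Apoe had the highest mean of the members in 5 of the 6 TIL groups, and Lpl the third highest in CD45+ TILs. In Yap-cKO CD4+ TILs Fabp5 (197 ± 140 TPM, SD, n = 4) and Apoe (188 ± 178 TPM) lay within their spread of each other. In WT CD45+ TILs the mean TPM was 4385 for Apoe, 611 for Fabp5, 108 for Lpl, 78.0 for Cd36, 59.3 for Lipa, 58.7 for Fabp4, 16.9 for Abcg1, 14.9 for Pparg and 6.94 for Abca1. In Yap-cKO CD8+ TILs Lpl stood at 27.3 TPM, between Lipa (34.8) and Cd36 (18.4), and in WT CD8+ TILs at 4.90 TPM, above Abca1 alone (1.31). In TDLN T cells Lipa (38.6 to 65.0 TPM), Abcg1 (51.6 to 57.5) and Fabp5 (29.5 to 52.8) led, and Lpl was at 1.36 to 2.08 TPM.

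Among the uptake genes, Cd36 fell in the Yap-cKO CD4+ TILs, where Lpl did not pass the test. Its CD4+ TIL libraries held 39.9, 30.4, 31.1 and 10.6 CPM with WT (28.0 ± 12.4, SD, n = 4) and 2.35, 3.90, 6.56 and 1.85 with Yap-cKO (3.66 ± 2.12, SD, n = 4). Every Yap-cKO library was below every WT library, and the log2 difference was -2.92 (SE 0.53, edgeR adjusted p = 0.0116). The call was lost with a term for the Y-linked genes (-1.82, adjusted p = 0.444, range over the alternatives 4.99e-07 to 0.444). That term followed the genotype except in WT replicate 4, and with it the calls over all genes there went from 1139 to 2. In CD8+ TILs the WT libraries ran from 8.35 to 159 CPM and held all 4 Yap-cKO values (25.8 to 42.5), and the log2 difference of -1.12 turned to 1.56 with the Y-linked term.

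In CD45+ TILs the Cd36 ranges of the genotypes overlapped, at 89.3 to 279 CPM (WT) and 146 to 270 CPM (Yap-cKO), with a log2 difference of 0.14. The gap between CD45+ and CD4+ cells was therefore wider in Yap-cKO tumors (log2 5.79) than in WT tumors (log2 2.68), and Cd36 was the only member for which the test of that difference passed (3.09 on the log2 scale, SE 0.64, edgeR adjusted p = 0.0197; 1.51% of all genes were called in that direction). With offsets for transcript length the difference was 2.90 (adjusted p = 0.0507, the highest of its alternatives, which ran down to 0.000152). Summed melanoma markers, at 5455 to 16516 CPM (WT) and 177 to 2405 CPM (Yap-cKO) in CD4+ TILs, and endothelial markers, at 161 to 370 and 80.8 to 137 CPM, moved with the fall in CD4+ cells, and their part in it was not tested. In TDLN T cells Cd36 was at or below 0.515 CPM.

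Fabp4, the fatty acid binding protein of adipocytes, macrophages and capillary endothelium, differed from Lpl in where it was highest. Its means were 265 CPM in WT CD8+ TILs, 177 CPM in WT CD4+ TILs and 44.1 CPM in WT CD45+ TILs. In WT tumors it was thus lower in CD45+ than in CD4+ cells (log2 -2.04, SE 0.49, edgeR adjusted p = 0.00592), with ranges that overlap. WT CD8+ TILs held 217, 509, 304 and 28.2 CPM and Yap-cKO CD8+ TILs 6.77, 6.80, 18.2 and 56.0, so that WT replicate 4 lay inside the Yap-cKO range. In CD4+ TILs the WT values of 257, 214, 192 and 45.3 CPM stood against 2.65, 11.8, 62.4 and 6.13, and here Yap-cKO replicate 3 lay inside the WT range.

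The Fabp4 difference in CD4+ TILs was -3.04 on the log2 scale (SE 0.91, edgeR adjusted p = 0.0684) and did not pass. Without Yap-cKO CD4+ TIL replicate 3 it was -4.73 (adjusted p = 0.0016, range over the alternatives 0.000925 to 0.998). That replicate also held 619 CPM of macrophage markers, against 102 to 164 in the other 3, and 56.3 CPM of fibroblast and pericyte markers, the highest of its group. Its T-lineage sum (11977 CPM, against 7323 to 7822 in the others) and its melanoma sum (2405 CPM, against 177 to 911) were the highest too. Its dendritic cell sum (31.6 CPM) was the lowest of the group. The endothelial marker sum in CD8+ TILs was highest in WT replicate 2 (1474 CPM) and lowest among the WT libraries in replicate 4 (110 CPM), the libraries with the highest and lowest WT Fabp4. In WT CD4+ TILs both were lowest in replicate 4. There Fabp4 was highest in replicate 1 and the endothelial sum in replicate 2 (370 CPM, against 272 in replicate 1). The part of any of these cells in the Fabp4 values was not tested. TDLN libraries held at most 1.52 CPM of Fabp4.

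Fabp5, the epidermal-type fatty acid binding protein that many activated cells express, was high in all tumor fractions. WT CD45+ TILs held 265 to 728 CPM, and Yap-cKO CD45+ TILs lay within that range at 481 to 604 CPM (log2 0.05). WT CD8+ TILs held 476, 240, 177 and 320 CPM and Yap-cKO CD8+ TILs 56.9, 88.1, 170 and 166, with every Yap-cKO library below every WT library (log2 -1.41, SE 0.42, not tested). The WT CD4+ TILs held 521, 290, 234 and 209 CPM and the Yap-cKO CD4+ TILs 69.1, 49.6, 334 and 103, and the log2 difference of -1.14 (SE 0.59, edgeR adjusted p = 0.257) did not pass. It became -2.14 (adjusted p = 0.00413, range over the alternatives 0.00413 to 0.998) without Yap-cKO replicate 3. TDLN libraries lay between 4.95 and 38.0 CPM. In Yap-cKO TDLNs Fabp5 was lower in CD45+ than in CD4+ cells (log2 -1.27, edgeR adjusted p = 0.0413), a call lost without any of 6 of the 8 libraries.

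Pparg was the member that rose with Yap-cKO in CD4+ TILs. The WT libraries held 9.93, 10.2, 10.2 and 7.72 CPM (9.51 ± 1.20, SD, n = 4) and the Yap-cKO libraries 71.6, 38.6, 9.93 and 57.4 CPM (44.4 ± 26.6, SD, n = 4). Yap-cKO replicates 1, 2 and 4 were above all WT libraries and replicate 3 lay within the WT range. The log2 difference was 2.19 (SE 0.49, edgeR adjusted p = 0.0225). It was lost without any of the other 7 libraries (adjusted p 0.0505 to 0.0974), with a block for the replicate number (1.94, adjusted p = 0.0702), with the Y-linked term (2.50, adjusted p = 0.335) and with T-lineage scaling (1.02, adjusted p = 0.276), while DESeq2 gave the lowest adjusted p of its alternatives (0.000347). The Y-linked term took the calls over all genes from 1139 to 2, and T-lineage scaling brought the median of all genes to -1.12.

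In the other tumor fractions Pparg went in both directions without a call. WT CD45+ TILs held 33.7, 23.8, 26.4 and 25.2 CPM and Yap-cKO CD45+ TILs 52.0, 49.3, 63.2 and 33.6, a log2 difference of 0.84 (SE 0.21, edgeR adjusted p = 0.0825). WT CD8+ TILs held 5.70, 19.7, 6.15 and 1.76 CPM and Yap-cKO CD8+ TILs 3.62, 2.74, 4.45 and 1.40, and the log2 difference of -1.54 turned to 0.44 with the Y-linked term. In Yap-cKO tumors the CD45+ and CD4+ cells did not differ past the threshold (log2 0.14, SE 0.48, adjusted p = 0.861), whereas in WT tumors it was lower in CD4+ cells (CD45+ over CD4+ 1.47, adjusted p = 0.000346). The difference between these gaps was -1.31 (adjusted p = 0.269). TDLN libraries held at most 1.39 CPM.

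The Pparg transcripts start at different places, and the promoter windows are shown because the CD4+ TILs used the starts unequally. In Yap-cKO CD4+ TILs Pparg-204 held 21.9 ± 16.1 TPM (SD, n = 4; 58.1% of the gene's TPM), Pparg-202 held 13.5 ± 7.24 TPM (35.8%), and Pparg-201, which starts farther downstream, held 0.2 TPM (0.53%). In WT CD4+ TILs the shares were 41.6%, 45% and 1.85%. In CD45+ TILs Pparg-202 led with 61.4% to 62.6% and Pparg-204 took 29.1% to 32.5%. These shares are Salmon's estimates and were not tested. The windows come from RefSeq promoters on GRCm38.p6, plus strand, and end at the base before each transcript's first base. The first 2 are cut short of the RefSeq starts, 115361144 and 115362349 (the start of Pparg-206), to leave out exon bases of Pparg-202 and Pparg-204. Capitals mark the CCAAT box and the GC-box word GGGCGG, on either strand.
Upstream of Pparg-202, chr6:115360894-115360950: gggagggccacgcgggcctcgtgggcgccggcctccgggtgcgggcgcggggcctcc
Upstream of Pparg-204, chr6:115362099-115362291: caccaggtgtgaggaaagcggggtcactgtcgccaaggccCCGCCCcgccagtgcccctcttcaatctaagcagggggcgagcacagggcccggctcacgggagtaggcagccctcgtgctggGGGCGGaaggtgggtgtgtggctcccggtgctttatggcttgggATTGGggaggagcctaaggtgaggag
Upstream of Pparg-201, chr6:115421816-115422065: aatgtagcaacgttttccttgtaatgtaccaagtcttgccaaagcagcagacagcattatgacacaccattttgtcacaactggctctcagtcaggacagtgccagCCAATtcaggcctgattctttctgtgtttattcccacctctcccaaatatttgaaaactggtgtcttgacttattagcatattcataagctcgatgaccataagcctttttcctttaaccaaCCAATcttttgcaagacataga

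Both strands of these windows were searched for the TATA-box word TATAAA, the nuclear receptor half-site AGGTCA, the CCAAT box and the GC-box word GGGCGG, which do not overlap one another here. The 193 bases before Pparg-204 hold 2 GGGCGG and 1 CCAAT, the 250 bases before Pparg-201 hold 2 CCAAT, and the 57 bases before Pparg-202 hold none of the 4. The exon bases left out before 115361144 hold 1 AGGTCA and 1 GGGCGG, and those before 115362349 hold 1 TATAAA and 1 AGGTCA. Among 32851 promoters cut to the same length, GGGCGG occurs in 23.5% of the 193-base windows and CCAAT in 27.3%, and CCAAT occurs in 33.8% of the 250-base windows. The matches describe the letters only.

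Apoe, the gene of the lipoprotein that carries cholesterol away from macrophages, followed the CD45+ fraction in both tissues. WT TDLN CD45+ cells held 857, 313, 739 and 725 CPM where TDLN T cells held 4.73 to 31.1, and in TDLNs the CD45+ cells exceeded the CD4+ cells by 5.67 on the log2 scale (WT) and by 5.40 (Yap-cKO). In CD45+ TILs it rose further, to 3989 ± 1342 CPM (WT) and 2415 ± 332 CPM (Yap-cKO, SD, n = 4 each), and the genotypes differed by -0.75 (SE 0.25, edgeR adjusted p = 0.170).

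Apoe held 1029, 724, 433 and 375 CPM in the WT CD4+ TILs and 53.7, 69.4, 415 and 55.7 in the Yap-cKO CD4+ TILs. Replicate 3 was again the Yap-cKO library within the WT range, and the log2 difference of -2.07 (SE 0.71, edgeR adjusted p = 0.102) became -3.48 (adjusted p = 0.00077, range over the alternatives 0.00077 to 0.838) without it. In CD8+ TILs the WT range of 336 to 771 CPM overlapped the Yap-cKO range of 266 to 673, with a ratio of means of 0.828. Apoe thus did not share the ratio of Lpl in these libraries.

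Abca1 and Abcg1, the cholesterol exporters, fell from TDLN to tumor in CD45+ and in CD4+ cells of both genotypes. In CD45+ cells Abca1 went from 257, 219, 320 and 192 CPM in WT TDLNs to 46.6, 70.7, 87.2 and 82.8 CPM in WT tumors (log2 -1.82), with no overlap, and the Yap-cKO mice gave -1.54. In CD4+ cells the falls were -2.46 in WT and -3.38 in Yap-cKO mice. Abcg1 lay at 97.8 to 234 CPM over all TDLN libraries and at 9.61 to 87.7 CPM over all TILs, and fell by 1.68 on the log2 scale in WT and by 1.12 in Yap-cKO CD45+ cells. In CD4+ cells Abcg1 changed by -2.61 in WT and -2.36 in Yap-cKO mice.

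Abca1 also separated the genotypes in CD8+ TILs, with 5.51, 13.9, 8.76 and 5.93 CPM in the WT libraries below 24.1, 24.1, 14.9 and 16.7 in the Yap-cKO ones. The log2 difference was 1.14 (SE 0.35, not tested) and -0.08 with T-lineage scaling, which brings the median of all genes to -1.06. Abcg1 held 9.61 to 31.7 CPM in WT CD8+ TILs and 27.7 to 41.1 in Yap-cKO CD8+ TILs, a log2 difference of 0.42 that turned to -0.66 under that scaling. In CD4+ TILs Abca1 (-0.29, edgeR adjusted p = 0.629) and Abcg1 (0.40, adjusted p = 0.5005) did not pass. Abca1 was higher in CD45+ than in CD4+ cells in both tissues and genotypes, by 2.20 to 4.05 on the log2 scale.

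Lipa, the lysosomal lipase, was higher in T cells than in CD45+ cells of lymph nodes. TDLN T cells held 79.0 to 154 CPM and TDLN CD45+ cells 34.1 to 45.5 CPM, without overlap, and CD45+ over CD4+ cells gave log2 -1.61 in WT (edgeR adjusted p = 7.55e-05) and -1.73 in Yap-cKO TDLNs. In tumors the order was turned: CD45+ TILs held 126 to 222 CPM and CD4+ TILs 37.7 to 84.2 CPM, with log2 differences of 1.31 (adjusted p = 0.0013) in WT and 1.68 in Yap-cKO mice. The genotypes did not differ past the threshold in CD4+ TILs (log2 -0.27, adjusted p = 0.592) or CD45+ TILs (0.07). WT CD8+ TILs held 34.2, 78.2, 53.9 and 50.3 CPM and Yap-cKO CD8+ TILs 73.6, 76.4, 76.7 and 47.7. The log2 difference of 0.25 became -0.91 with T-lineage scaling, where the median of all genes was -1.06.

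The wider pathway was read from 49 other lipid genes in 7 groups: partners of the lipases, uptake receptors, fatty acid binding, nuclear receptors and SREBPs, cholesterol export and lysosome, lipid droplets and lipolysis, and lipid synthesis. In WT tumors 17 of the 45 tested were higher in CD45+ than in CD4+ cells and 6 lower (15.6% and 17.6% of all genes), among them 5 higher and 1 lower of 8 uptake receptors. In Yap-cKO tumors 21 of 44 were higher and 2 lower (15.8% and 13.9%), with 6 of 7 uptake receptors higher. A gene that passed the filter through the CD45+ libraries alone, such as Apoc1 or Olr1 in WT tumors, could only count as higher. The median log2 difference was 0.62 in WT and 1.09 in Yap-cKO tumors, against -0.06 and -0.12 over all genes.

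Scavenger and endocytic receptors and apolipoproteins led this difference. Msr1 exceeded CD4+ cells by 5.91 on the log2 scale in WT and by 7.19 in Yap-cKO tumors, Lrp1 (a large endocytic receptor) by 4.53 and 6.34, Olr1 (the oxidized LDL receptor) by 6.71 and 5.69, and Nr1h3 (the nuclear receptor LXRα) by 3.89 and 5.50. Apoc2, the cofactor that LPL needs, exceeded CD4+ cells by 6.87 and 6.56. Apoc1 had no count in the WT CD4+ TILs and 2.80 to 4.85 CPM in the WT CD45+ TILs, at least 96.3-fold higher against a floor of 3 counts over the group. Msr1 is also among the genes most like Lpl.

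From TDLN to tumor the CD45+ cells raised 22 of 44 pathway genes in WT and 24 of 43 in Yap-cKO mice and lowered 2 in each, where 21.9% and 21.8% of all genes rose and 18% and 18.5% fell, with medians of 0.99 and 1.42 against -0.08 and -0.09 over all genes. In Yap-cKO mice Plin2, which coats lipid droplets, went from 13.5 to 21.7 CPM in TDLNs to 920 to 1366 CPM in tumors (log2 5.99), and Lrp1 from 4.31 to 7.81 CPM to 434 to 658 CPM (log2 6.51). WT CD4+ cells raised 17 of 42 and lowered 1 (22.9% and 14.4% of all genes), and Yap-cKO CD4+ cells raised 8 of 39 and lowered 1 (12.4% and 6.07%). A gene that passed the filter through the tumor libraries alone could only count as raised. Plin2 was among those raised in Yap-cKO CD4+ cells, from 17.3 to 30.5 CPM to 107 to 223 CPM (log2 2.56).

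Gpihbp1, which anchors LPL on capillary endothelium, was highest in the WT T cells from tumors. It had no count in any TDLN T cell library and reached 113, 74.4, 96.1 and 19.9 CPM in WT CD4+ TILs, at least 1855-fold higher against the floor of 3 counts over the group. In Yap-cKO CD4+ TILs it held 0.882, 2.44, 109 and 1.59 CPM, so the bound of at least 718-fold there rests on replicate 3. Its mean was 118 CPM in WT and 2.76 in Yap-cKO CD8+ TILs, and 11.3 and 2.97 in the CD45+ TILs of the same genotypes. The endothelial marker sums given above for CD8+ and CD4+ TILs were likewise higher in WT. Within Yap-cKO CD4+ TILs those sums were 126, 112, 137 and 80.8 CPM, where Gpihbp1 stood far higher in replicate 3 than in the others. The part of endothelial cells in the Gpihbp1 values was not tested.

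Between genotypes 1 of 43 pathway genes rose and 3 fell in CD4+ TILs, where 1.36% of all genes rose and 6.66% fell. Their median log2 difference was -0.21, against 0.14 over all genes. Dgat2, the last enzyme of triglyceride synthesis, held 179, 53.4, 68.3 and 74.0 CPM with Yap-cKO against 12.9, 13.9, 32.5 and 9.43 with WT (log2 2.42, edgeR adjusted p = 0.0158). The stearoyl-CoA desaturase gene Scd2 held 55.3, 83.0, 110 and 83.7 CPM against 500, 657, 262 and 451 CPM (log2 -2.49, adjusted p = 0.00656), with Scd1 at -2.72 and Fabp7 at -3.20. Each of the 4 calls was lost with the Y-linked term, with which 2 of all genes were called, against 1139 without it. Those of Dgat2, Scd1 and Fabp7 were also lost without single libraries. T-lineage scaling ended that of Dgat2 too (1.37, adjusted p = 0.101), and the replicate block that of Fabp7 (-3.19, adjusted p = 0.0534). Scd2 was also the 1 pathway gene whose gap between CD45+ and CD4+ cells differed between the genotypes (2.60 on the log2 scale, adjusted p = 0.00672). The melanoma and endothelial marker sums given for Cd36 moved with the falls in CD4+ TILs.

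In CD45+ TILs 1 of 44 pathway genes was called (0.991% of all genes were), Mgll, the monoglyceride lipase, with 5.04, 4.72, 4.77 and 6.00 CPM for Yap-cKO against 13.1, 12.3, 11.4 and 10.95 for WT (log2 -1.23, edgeR adjusted p = 0.0247). This call was lost without any of 6 libraries. It was also lost with the replicate block and with the Y-linked term, each of which left 1 call over all genes, against 135. The summed melanoma markers given for Yap1 and the B cell markers (796 to 1631 CPM in WT and 190 to 772 in Yap-cKO CD45+ TILs) fell with Mgll, and their part in its fall was not tested. In TDLNs edgeR and DESeq2 called none of the 36 tested in CD4+ cells, the 36 in CD8+ cells and the 40 in CD45+ cells. Unadjusted edgeR p-values below 0.05 numbered 0, 1 and 7. Over all genes they numbered 228 of 12992, 120 of 12651 and 391 of 13432. Without a test, the CD8+ TIL median of 43 pathway genes was -0.23, and that of all genes 0.08.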

How the data were processed

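RNA from sorted cells had been amplified with the SMART-Seq v4 Ultra Low Input kit. Per the submitters' notes reads were checked with FastQC, trimmed with Trimmomatic and quantified with Salmon 0.9.1 against mm10 transcripts. The deposited files give, for each transcript, Salmon's expected count (the authors' estimated number of reads, not whole) and TPM. Of 112092 transcripts, 111787 matched GENCODE M21. Expected counts were summed over each gene's transcripts and rounded, and TPM was summed and used only to compare genes. The 48 libraries held 12656302 to 24213689 counts on 34932 genes, so a low gene such as Lpl in TDLN T cells rests on 27 to 163 counts. Amplified reads without molecular identifiers are not independent molecules.

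Within each comparison, genes reaching 10 counts in 4 or more libraries were fitted with edgeR 4.0.16 (TMM, quasi-likelihood test, R 4.3.3), p-values were Benjamini-Hochberg adjusted over all genes fitted, and a gene was called at an adjusted p under 0.05 with a log2 difference past 1. The procedure was tested on simulated counts with the same relative spread for every gene and no carry-over of other cells. That test does not cover the unequal carry-over seen in these libraries. CPM values used TMM factors over all libraries, and logs took a pseudocount of 0.5 CPM. Alternatives were DESeq2 1.42.0, no count filter, transcript length offsets, a replicate block, a Y-linked covariate, scaling on T-lineage genes, leaving out each library, and (added after seeing the data) Lpl counted on Lpl-201 and Lpl-203.

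The members, pathway and marker lists were chosen with earlier results of these data known, so no list has a test of its own. A further macrophage marker is not reported here. Named pathway genes are at most the 6 called genes with the largest log2 difference in each comparison, and genes most like Lpl are the 10 with the highest r among genes with a mean of at least 1 CPM. Libraries of a group were compared in 72 pairs, and none were identical. Groups share replicate numbers 1 to 4. Over genes, deviations from the group means were correlated between same-numbered libraries, and all 4 correlations passed 0.1 only for CD45+ against CD4+ cells in WT tumors (0.52, 0.41, 0.24 and 0.24), which comes from the data and not the labels.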

Additional observations from a re-analysis of the deposited data

Results flagged for a closer look

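In groups of 4 libraries, 1 library stood far from the other 3 (Dixon's test) in 8 of the 108 gene and group combinations (7.41%), where chance gives about 1 in 20. Yap-cKO CD4+ TIL replicate 3 was the high one for Lpl (11.7 CPM), Fabp4 (62.4 CPM) and Apoe (415 CPM). It was also the library of its group with the highest macrophage (619 CPM), T-lineage (11977 CPM) and melanoma (2405 CPM) marker sums. Yap-cKO CD8+ TDLN replicate 3 was high for Lpl (7.63 CPM) and was the Yap-cKO library with the highest Y-linked sum (18.3 CPM). Lipa was low in Yap-cKO CD8+ TIL replicate 4 (47.7 CPM) and Pparg was low in WT CD4+ TIL replicate 4 (7.72 CPM). Pparg was high in 1 WT CD8+ TDLN library (0.0716 CPM, a single count) and in 1 Yap-cKO CD4+ TDLN library (0.594 CPM).

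The gap of Cd36 between CD45+ and CD4+ TILs differed between the genotypes by 3.09 on the log2 scale, by the interaction term of the edgeR fit.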

How the results depend on the processing

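Expected counts of low genes, 4 libraries in a group and unequal carry-over of other cells limit what can be read. T-lineage scaling brought the median of all genes to -1.12 in CD4+ TILs and to -1.06 in CD8+ TILs. The causes of the changes below were not tested.

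In CD4+ TILs, 2 members were called between genotypes, 4 with DESeq2, without the count filter and with T-lineage scaling, 0 with the Y-linked covariate, and 1 to 5 when single libraries were left out (5 without Yap-cKO replicate 3: Cd36, Pparg, Apoe, Fabp4 and Fabp5). Of all genes, 1139 were called there (193 higher and 946 lower), 2128 with DESeq2 (582 and 1546), 1723 without the filter, 2 with the Y-linked covariate, 3375 with T-lineage scaling (17 and 3358) and 332 to 3236 with a library left out. The calls in CD45+ TILs went from 135 to 527 with DESeq2, 250 without the filter, 1 with the block, 1 with the covariate and 1 to 117 with a library left out. In CD8+ TILs T-lineage scaling turned 428 higher and 1291 lower calls into 6 and 5325, while the block and the covariate each left 1 call. The Lpl difference there was 3.02 with the covariate and 1.13 with T-lineage scaling. For the interaction, 1 member was called, 0 with length offsets and 1 to 5 with a library left out, and 253 of all genes, 688 with DESeq2 (553 and 135 against 229 and 24) and 146 to 1286 with a library left out. The calls of CD45+ against CD4+ cells ran from 3 to 6 members in WT TDLNs and from 3 to 5 in Yap-cKO TDLNs with a library left out. For Yap-cKO CD4+ TILs against TDLNs, 2507 genes were called and 1516 to 2436 with a library left out.

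Directions turned for small differences. T-lineage scaling gave Abcg1 in CD4+ TILs -0.71. The covariate gave, in CD4+ TDLN cells, Lpl -0.37, Apoe 1.13 and Abca1 -0.086; in CD8+ TDLN cells, Fabp5 0.75, Apoe 0.65 and Abcg1 0.22; and in CD45+ TDLN cells, Abca1 0.16 and Lipa -0.045. With a library left out, the genotype differences in TDLN CD45+ cells ranged from -0.32 to 0.085 for Abca1, -0.31 to 0.0019 for Abcg1, -0.032 to 0.82 for Cd36, -0.071 to 0.078 for Lipa and -0.19 to 0.11 for Lpl. In TDLN CD4+ cells Abcg1 ranged from -0.058 to 0.17. In TDLN CD8+ cells Abcg1 ranged from -0.23 to 0.011, Apoe from -0.39 to 0.20, Fabp5 from -0.45 to 0.17 and Lpl from -0.52 to 0.59. In CD45+ TILs Cd36 ranged from -0.065 to 0.43, Fabp5 from -0.15 to 0.27 and Lipa from -0.049 to 0.19. In Yap-cKO TILs, CD45+ over CD4+ cells, Fabp4 ranged from -0.29 to 1.74 and Pparg from -0.21 to 0.44, and the interaction of Abcg1 ranged from -0.16 to 0.29.

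The block for the replicate number ended the calls of Pparg in CD4+ TILs (1.94, edgeR adjusted p = 0.0702), of Fabp5 in Yap-cKO TDLNs, CD45+ over CD4+ cells (-1.42, adjusted p = 0.0769), and of Lpl (1.37, adjusted p = 0.0741) and Fabp5 (2.09, adjusted p = 0.0559) in Yap-cKO CD4+ TILs over TDLNs. It added Fabp4 in CD4+ TILs (-3.73, adjusted p = 0.0416). In these comparisons no source used here says whether libraries with the same number share an animal. The block changed no other member's call. DESeq2 gave no adjusted p for Apoe and Fabp5 in Yap-cKO TILs, CD45+ over CD4+ cells, for Apoe in Yap-cKO CD4+ TILs over TDLNs, and for Pparg in TDLN CD45+ cells.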
